A study of Homo sapiens with 15 samples.

Results

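The genes of telomerase and of shelterin were examined for G-quadruplex signal in K562 cells. The members were taken by name. The 4 protein genes of the telomerase particle were TERT, DKC1, NHP2 and NOP10, and the 6 genes of shelterin were TERF1, TERF2, TERF2IP, TINF2, ACD and POT1. A region or peak belonged to a gene when it lay within 1 kb of any of the gene's GENCODE start sites or inside the gene. By that rule 8 of the 10 genes had a region in the list of high-confidence regions. They held 11 of its 8955 regions. Over the 5 single-library lists the 10 genes had 53 peaks, 1 of them at TERT.

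A G-quadruplex is a fold of G-rich DNA in which sets of guanines pair in flat layers that stack. In this study they were captured in asynchronously growing K562, an established human chronic myelogenous leukaemia line, with BG4, an antibody against the folded structure, and the captured DNA was sequenced. There was 1 cell line, no treatment and no comparison group: biological replicate 1 gave technical libraries 1a and 1c, and biological replicate 2 gave 2a, 2b and 2c. Not analysed here were the 2 K562 input libraries and 8 bisulfite libraries of HaCaT keratinocytes, 4 of control cells and 4 after 48 h in 10 uM entinostat. Each peak carries the authors' own fold enrichment over local background and the −log10 p at its summit. Because fold depends on the library, it is also given as a percentile among the nuclear peaks of the same list. Means ± SD are over the 2 biological replicates after averaging technical libraries, and with n = 2 there was no test of any difference.

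Telomerase extends chromosome ends by copying an RNA template. TERT is its reverse transcriptase, and DKC1 (dyskerin, a pseudouridine synthase), NHP2 and NOP10 bind and stabilise the RNA. Shelterin covers the telomere repeat: TERF1 and TERF2 bind its double-stranded part, POT1 binds the single-stranded overhang, TERF2IP (RAP1) rides on TERF2, and TINF2 (TIN2) and ACD (TPP1) join the pieces and bring POT1 and telomerase to the end. The G-rich strand of the telomere repeat is itself a well-known quadruplex former, but the regions described here are at the genes and not at the repeats.

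The sequences below are shown because they carry the contrast among these genes. BG4 regions that hold a quadruplex motif come first, at the POT1 start site only with longer loops than in the definition used here. A start site with motifs and no region follows, then 2 regions without a motif at either loop length. A G4 motif was 4 runs of GGG or longer separated by loops of 1 to 7 bases, searched on both strands. All were read from GRCh37 and are written 5′ to 3′ with each run of 3 or more G in capitals. The DKC1 motif lies at chrX:153991077-153991106 on the minus strand, opposite to the gene, with its outer G runs shortened here to fit 30 bases. The NHP2 motif lies at chr5:177581104-177581129 on the plus strand, also opposite to its gene. The ACD motif lies in its upstream region, at chr16:67694850-67694871 on the plus strand, opposite to ACD. That motif is outside the ACD gene and overlaps an exon of another gene. PARD6A starts within 1 kb of the region. The POT1 motif at chr7:124570160-124570188, on the plus strand, needs a loop longer than 7 bases and was found only with loops of up to 12.
DKC1: GGGGcGGGaggaggcGGGGccatcccGGGG
NHP2: GGGaatcGGGGccggagaGGGcGGGG
ACD upstream: GGGGcGGGGcggcgcGGGcGGG
POT1 start site: GGGaggcaagcttaGGGGaagcGGGcGGG

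At the TERT start site 3 motifs stand close together on the plus strand, the strand opposite to TERT, at chr5:1295204-1295221, chr5:1295228-1295250 and chr5:1295252-1295271. Counted from the canonical start, their far ends stood at −38, −67 and −88 bp.
TERT nearest: GGGGaGGGGctGGGaGGG
TERT middle: GGGGGctGGGccGGGGacccGGG
TERT farthest: GGGGtcGGGacGGGGcGGGG

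The TERF2IP region has no motif. Its stretch outside exons, chr16:75681564-75681670 on the plus strand, which is that of TERF2IP, holds 3 runs of 3 or more G, 1 short of a motif on this strand. The AT-rich POT1 region lies over an exon far inside the gene. Its intronic part, chr7:124503695-124503900 on the minus strand, which is that of POT1, is 206 bases long with a GC content of 33.0% and holds no run of GGG on this strand.
TERF2IP: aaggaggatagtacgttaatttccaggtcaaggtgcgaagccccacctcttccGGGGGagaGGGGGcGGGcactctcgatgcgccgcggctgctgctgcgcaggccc
POT1 intron: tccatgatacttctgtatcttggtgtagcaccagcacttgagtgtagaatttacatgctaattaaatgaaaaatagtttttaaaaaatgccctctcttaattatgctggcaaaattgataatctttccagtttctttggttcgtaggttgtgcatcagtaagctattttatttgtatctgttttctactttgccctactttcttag

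The single lists held between 8059 and 12495 peaks, and the number of reads behind them is unknown. The lowest −log10 p in any list was 5.002 to 5.053, so a gene without a peak is one with no peak past that limit. The letters in the peak names of lists 2a and 2c are swapped with respect to the labels used here, so either list may be the other. No value per region comes with the high-confidence list, and every one of its 8940 nuclear regions was recovered as a stretch covered by peaks of at least 3 of the 5 libraries.

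DKC1, NHP2 and all 6 shelterin genes had a high-confidence region within 1 kb of a start site, and TERT and NOP10 had none. That is 8 of 10 (80%, 95% Wilson interval 49 to 94.3), beside 35.5% of all 20162 protein-coding genes. By the full rule, which adds the gene body, the same count stood beside 37.9%. Each of the 8 genes had a start-site region with a peak in all 5 libraries, beside 22.8% of protein-coding genes. At the other end, TERT and NOP10 had no start-site peak in any library, beside 51.1% of protein-coding genes. Single libraries had a start-site peak at 8 of the 10 genes in each case, where they had one at 32.6% to 40% of all protein-coding genes. With the gene body included the mean was 8.25 ± 0.354 genes (SD, n = 2). With 10 genes these counts are descriptions and carry no test.

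The members were compared also with genes that have a CpG island, a CpG-rich stretch found at many start sites. All members but NOP10, 9 genes, had a strict island (windows of 500 bp with a GC content of 55% or more and CpG at 0.65 or more of its expected count) within 1 kb of the canonical start. Of those 9 genes 8 had a start-site region (88.9%, 56.5 to 98), beside 46.9% of all protein-coding genes with such an island. The intervals cover counting error only. All 10 start-site regions of the members lay on a strict island, as did 93.7% of the start-site regions of protein-coding genes. The regions of the members had a median GC content of 68.7% and a median width of 233 bp, beside 71.01% and 214 bp for all start-site regions of protein-coding genes. TINF2 and ACD each had 2 start-site regions, 2 of the 8 genes with any, beside 15.7%.

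**Figure D1:**
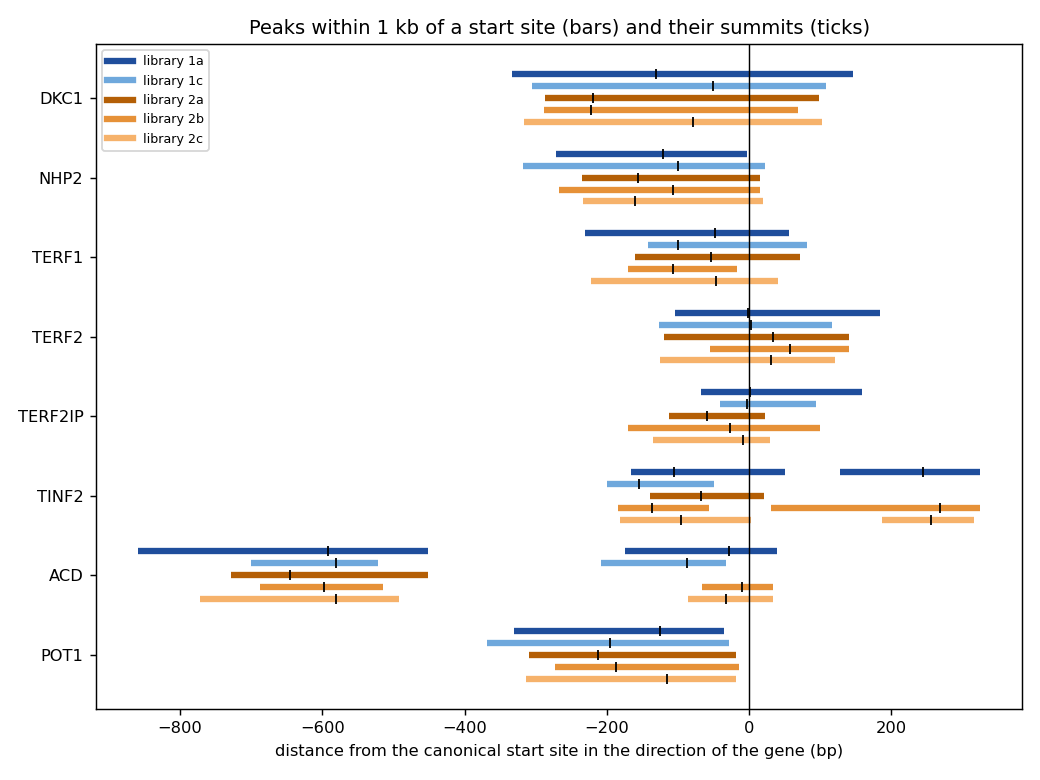
Each bar is 1 peak of 1 library (color), placed by its distance in bp from the canonical start site in the direction of the gene, and each tick is its summit. The 6 genes other than TINF2 and ACD have 1 block of peaks per gene, TINF2 has a second block downstream of the start in 3 libraries, and ACD a separate upstream block with summits from −646 to −581 bp.

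Among the telomerase genes DKC1 had a high peak in every library. Its region (chrX:153990834-153991241, 408 bp, GC 71.6%) began 305 bp upstream of the canonical start and reached over the start into UTR and 1 coding base. Fold enrichment at DKC1 was 11.5 (1a) and 9.76 (1c) in replicate 1 and 9.32 (2a), 8.76 (2b) and 8.10 (2c) in replicate 2. The −log10 p was 24.5, 17.5, 16.3, 15.8 and 21.4 in the same order. Both libraries of replicate 1 were above all 3 of replicate 2 in fold, by a ratio of means of 1.22. As a percentile the peak stood at 86.9 ± 3.73, and it was at or above the percentile 81.1 in every list. All 5 peaks shared 357 of the 480 bases that any of them covered, while the summits were spread over 171 bp.

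NHP2, a small RNA-binding protein of the same particle, had the widest gap in fold enrichment between the replicates of all members. The region (chr5:177580871-177581153, 283 bp, GC 64.0%) lay almost wholly upstream of the canonical start, with 16 bases of UTR. Fold enrichment was 10.8 and 8.14 in libraries 1a and 1c, against 4.77, 4.90 and 4.01 in 2a, 2b and 2c. The −log10 p was 20.1 and 16.2 in replicate 1, and 8.64, 11.2 and 9.09 in replicate 2. The groups did not overlap in either measure, and the mean fold of replicate 1 was 2.07 times that of replicate 2. In percentiles the NHP2 peak stood at 81.6 in replicate 1 and 12.2 in replicate 2, with a mean of 46.9 ± 49.1. Replicate 1 above replicate 2 in every library, in percentiles, held for DKC1 and NHP2, 2 of the 9 member regions present in all 5 libraries, beside 23% of all such regions. The share in −log10 p was not counted. A lncRNA, ENSG00000289726, also starts within 1 kb of the NHP2 region.

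TERT (chr5:1253262-1295183, minus strand) had no region and no start-site peak. Its single peak (chr5:1284708-1284948) came from library 1c and lay in an intron, 10235 bp from the canonical start and 1583 bp from the nearest annotated start. Its fold enrichment of 4.65, −log10 p of 6.93 and percentile of 11.5 were low for that list, and it held no G4 motif. The high-confidence region nearest to the TERT start was 50009 bp away. With 4 motifs within 1 kb of the canonical start, a strict island and a GC content of 73.4% over that window, TERT had the most GC-rich start site of the 10 genes.

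Motif count alone did not separate the members with a region from those without. Protein-coding genes with no motif in the window had a start-site region in 21.3% of cases. Of the 3 members without a motif, TERF2IP and TINF2 had a region and NOP10 did not. With 1 motif the share was 37.9% (TERF1 and POT1), with 2 motifs 42.1% (DKC1 and NHP2), with 3 motifs 44.4% (TERF2) and with 4 motifs 46.9% (ACD with a region, TERT without). Of the members with 3 or more motifs, TERF2 and ACD had a region and TERT did not, beside 46.3% of all such genes. At least 1 motif in a window of this length was present at 68.6% of genes and at 7 of the 10 members. The dense cluster at TERT is rarer: 1.24% of genes have 3 or more motifs in the 150 bp upstream of the canonical start, a window chosen after the TERT values were seen. Of those 246 genes 43.9% had a start-site region and the others, TERT among them, did not.

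**Figure D2:**
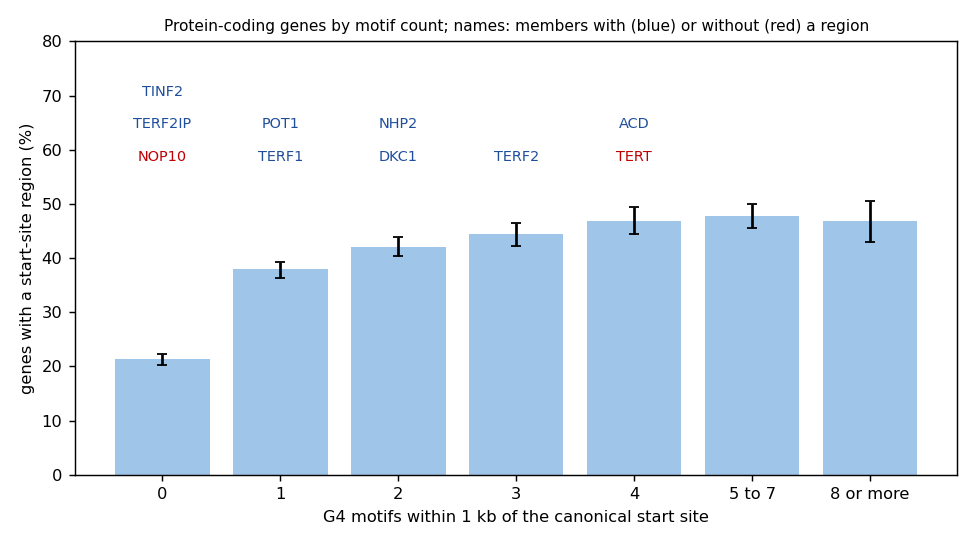
Bars give the percentage of protein-coding genes with a start-site region by the number of G4 motifs within 1 kb of the canonical start, with 95% Wilson intervals. Names mark the members of each class, in blue with and in red without a region: the share rises from 21.3% without a motif to 46.9% with 4, the class of TERT and ACD.

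NOP10 (chr15:34631360-34635381, minus strand), a small protein of the particle, had no peak by the rule in any of the 5 lists. It was the only member without a strict island, and the window around its start had a GC content of 48.0% and no motif. POT1 had a lower GC content over its window, 42.4%, and did have a region. The region nearest to the NOP10 start was 4915 bp away (chr15:34630183-34630422), beyond the end of the gene.

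In shelterin, TERF1 (TRF1), which binds the double-stranded repeat and limits telomere length, had a peak of uneven height. Its region (chr8:73920928-73921155, 228 bp, GC 64.9%) covered the canonical start, 23 bases of UTR and 34 coding bases. Fold enrichment was 9.73 in 1a and 8.81 in 2a, against 5.04 in 1c, 5.14 in 2b and 5.22 in 2c. The high values thus came from 1 library of each replicate, and the replicate means were percentiles of 50.2 and 45.1. The mean over both, 47.7 ± 3.65, rests on averaging unlike libraries: it was 31.6 without 1a and 63.7 without 1c. In the 3 low libraries −log10 p lay between 7.71 and 8.37. When peaks with −log10 p under 10 were left out, TERF1 was the only gene that went from having a region to having none.

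TERF2 (TRF2), which shapes the protective loop at the telomere end, had a region across the canonical start (chr16:69419770-69420030, 261 bp, GC 74.3%, the highest of the 11) with 36 bases of UTR and 105 coding bases. Fold enrichment was 8.86 (1a) and 5.49 (1c) in replicate 1 and 6.91 (2a), 6.64 (2b) and 6.31 (2c) in replicate 2. Replicate 1 held both the highest and the lowest value, so the replicates overlapped, with a mean percentile of 53.8 ± 2.87. That mean also averages unlike libraries: it was 42.05 without 1a and 65.5 without 1c. The −log10 p ran from 8.27 in 1c to 16.9 in 1a. The summits lay from −2 to 57 bp of the start. The region held no motif with loops of up to 7 bases and 1 with loops of up to 12.

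TERF2IP, the RAP1 partner of TERF2, had a region (chr16:75681559-75681765, 207 bp, GC 63.3%) that also lies within 1 kb of a start of KARS1, the lysyl-tRNA synthetase gene, so it cannot be assigned to TERF2IP alone. Fold enrichment was 9.30 (1a) and 6.20 (1c) in replicate 1 and 7.77 (2a), 6.86 (2b) and 6.08 (2c) in replicate 2. Again 1a was highest, the replicates overlapped, and the mean percentile was 61.1 ± 0.707. That small SD rests on averaging unlike libraries of replicate 1, at percentiles of 79.45 (1a) and 43.64 (1c). The mean was 52.1 without 1a and 70 without 1c. The −log10 p ran from 10.3 in 2c to 18.1 in 1a. The summits lay between −59 and 1 bp from the start, but the 5 peaks had only 64 bases in common of the 330 that any covered.

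TINF2 (TIN2), the bridge between the double-strand binders and ACD, had 2 regions on either side of its start. The upstream one (chr14:24711827-24712011, 185 bp, GC 65.9%) was in all 5 libraries, with folds of 5.76 (1a) and 4.58 (1c) in replicate 1 and 7.30 (2a), 7.79 (2b) and 6.28 (2c) in replicate 2. Both libraries of replicate 1 were below all of replicate 2, the reverse of NHP2, at percentiles of 19.5 against 63.9. The −log10 p of 6.29 in 1c was the lowest of this peak and that of 13.4 in 2b the highest. That order held for 1 of 9 member regions, beside 11.5% of all regions present in all 5 libraries. The downstream TINF2 region (chr14:24711513-24711642, 130 bp, GC 71.5%), over 104 bases of UTR and 26 coding bases, had a peak in 3 libraries, with folds of 10.8 (1a), 6.33 (2b) and 6.79 (2c). The downstream peak was thus the higher of the pair in 1a and 2c, and the lower in 2b. Its −log10 p was 20.15 (1a), 9.92 (2b) and 12.14 (2c). With peaks under 10 left out it had too few libraries for a region, and TINF2 kept only the upstream one. A lncRNA, ENSG00000289979, also starts within 1 kb.

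ACD (TPP1), which tethers POT1 and recruits telomerase, likewise had 2 regions. The upstream one (chr16:67694655-67694892, 238 bp, GC 72.3%) lay wholly upstream of the canonical start. It had folds of 8.45 (1a) and 7.54 (1c) in replicate 1 and 8.27 (2a), 6.28 (2b) and 5.21 (2c) in replicate 2, a mean percentile of 60.4 ± 12.3. The downstream one (chr16:67694130-67694249, 120 bp, GC 74.2%) was at the start itself and had peaks of 8.22 in 1a, 4.58 in 1c, 6.41 in 2b and 5.996 in 2c, with none in 2a. The upstream peak was the higher of the pair in 1a and 1c, and the lower in 2b and 2c. In −log10 p the upstream peak ran from 9.85 in 2c to 16.4 in 2a, and the downstream one from 6.29 in 1c to 16.8 in 1a. PARD6A, a cell polarity gene, starts within 1 kb of both regions, so neither can be assigned to ACD alone.

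POT1, which covers the single-stranded overhang, had the start-site peak with the highest mean percentile. The region (chr7:124569898-124570193, 296 bp, GC 64.5%) lay upstream of the canonical start, with a start of the antisense gene POT1-AS1 within 1 kb. Fold enrichment was 14.2 (1a) and 10.5 (1c) in replicate 1 and 8.30 (2a), 10.9 (2b) and 9.36 (2c) in replicate 2. The value in 2a was the lowest and that in 2b lay between those of replicate 1, so the replicates overlapped. The mean percentile was 90.7 ± 4.98, and all lists but 2a put the peak at or above the percentile 90.3. By fold, the POT1 peak is also the only member peak in the top 5% of a list, at 97.0 in 1a and 96.7 in 2b.

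**Figure D3:**
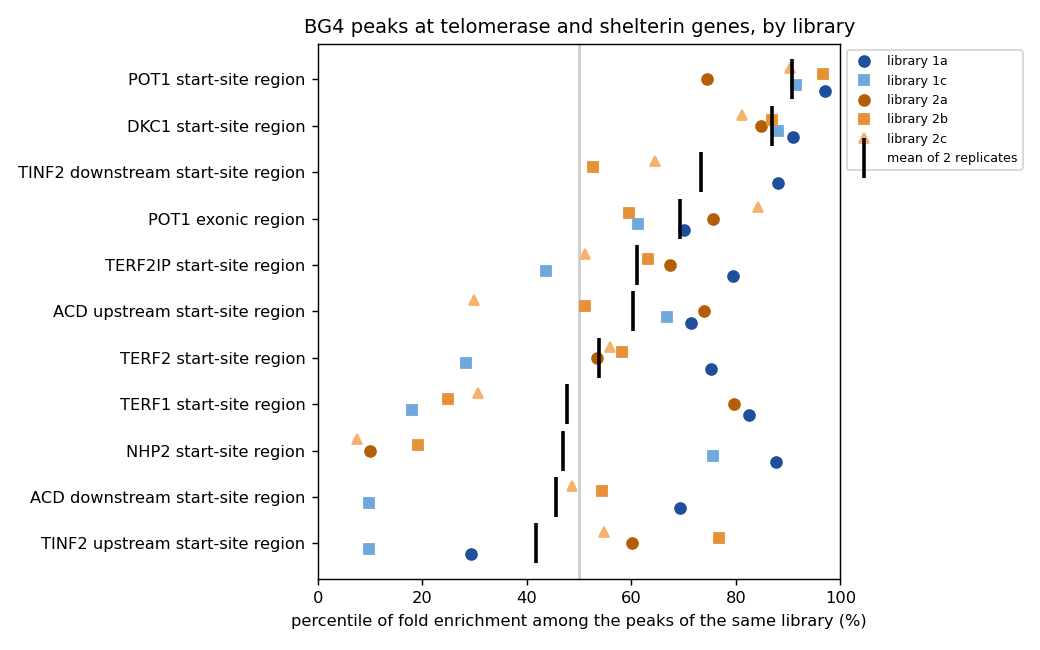
Each point is the percentile of a member peak's fold enrichment among all nuclear peaks of its own library, and each black line is the mean of the 2 biological replicates. The POT1 and DKC1 start-site regions lead at 90.7 and 86.9, NHP2 splits by replicate (81.6 and 12.2), and the TINF2 upstream region splits the other way.

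The order of the mean percentiles over the start-site regions therefore ran from POT1 and DKC1, through the downstream TINF2 region at 73.3 ± 20.9, TERF2IP, the upstream ACD region and TERF2, to TERF1, NHP2, the downstream ACD region at 45.5 ± 8.41 and the upstream TINF2 region at 41.7 ± 31.4. The ranges of 1 SD of neighbours in that order overlap, but with n = 2 this does not show whether they differ. Means were over libraries with a peak only. For the downstream TINF2 region replicate 1 is thus 1a alone, without 1c, and 2a is missing from both downstream means. The lowest percentile over the 5 libraries had a median of 29.1 among the 8 member start-site regions present in all of them, beside 38.1 for the 4160 such regions of protein-coding genes. A peak in all 5 libraries was found at 8 of the 10 member start-site regions, beside 58.5%. By the percentiles in the 5 libraries, the start-site regions most like that of DKC1 among 4159 others were those of FASTK (a largest difference of 2.82 percentage points), of KCNAB2 and NPHP4, which share one (3.65), and of CAMTA1 (4.42).

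The share of member regions with a G4 motif was close to that of all regions. A motif lay wholly inside 4 of the 11 member regions (36.4%, 15.2 to 64.6), at DKC1, NHP2 and ACD, beside 34.7% of the 8940 nuclear regions. Over start-site regions alone it was 4 of 10, beside 37.5%. With loops of up to 12 bases the TERF2, upstream TINF2 and POT1 start-site regions joined them, giving 7 of 11 beside 50.4%. With runs of 2 or more G the count was 10 of 11 beside 91.8%, and the region left without any motif was the exonic one in POT1.

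That POT1 region (chr7:124503375-124503900, 526 bp, in the gene at chr7:124462440-124570037) stands apart from the other 10 in position and sequence. It covers exon 8 of the 19 exons of the canonical transcript (291 coding bases, chr7:124503404-124503694) with 235 bases of the flanking introns, 65979 bp from the canonical start. Its GC content is 37.8%, where the other member regions have 63.3% to 74.3% and all nuclear regions a median of 70.1%. The region was named in advance as AT-rich when the members were set, so its low GC content is a description and not a finding. Only 3 of the 8940 nuclear regions have a lower GC content, and the widest of those is 17 bp. Among the 8846 regions of at least 25 bp it was the only one under 40% GC, 7 were under 45%, and the next lowest stood at 40.7%. With 100 bp added on either side the GC content was 36.5%.

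The exonic POT1 region held 6 CpG dinucleotides, an observed over expected ratio of 0.319, and no strict island. It was one of 646 regions of at least 25 bp (7.3%) with no motif even with runs of 2 or more G. Aligned back to GRCh37 with minimap2, the 526 bases had 1 alignment. The exon itself has a GC content of 43.0%, and the intron printed above is lower.

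**Figure D4:**
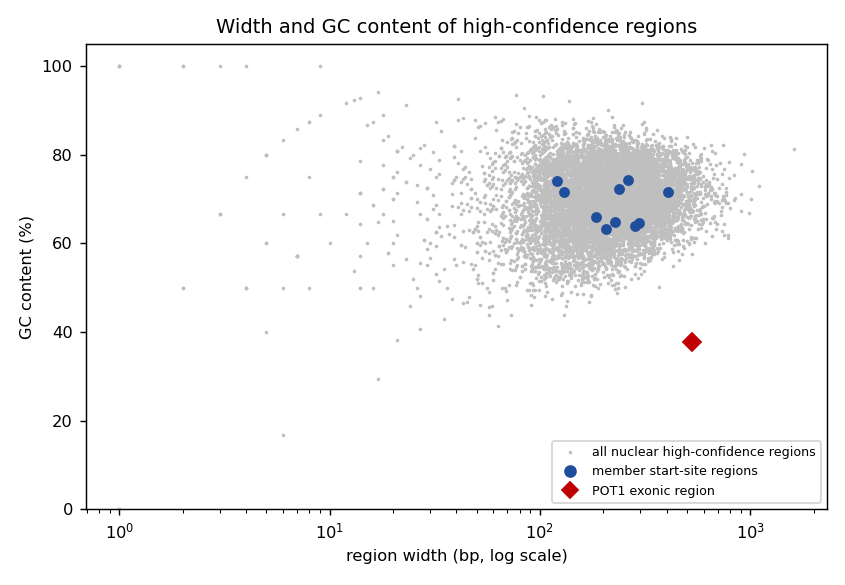
Each grey point is 1 nuclear high-confidence region, by its width in bp (log scale) and its GC content in percent. The 10 member start-site regions (blue) lie within the main cloud at 63.3% to 74.3% GC, and the exonic POT1 region (red), 526 bp wide at 37.8%, lies below every other region of at least 25 bp. The exonic region was named in advance as AT-rich.

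The exonic POT1 region was nevertheless present in all 5 libraries with folds that varied little: 8.32 (1a) and 7.07 (1c) in replicate 1 and 8.39 (2a), 6.68 (2b) and 8.45 (2c) in replicate 2. The replicates overlapped, with a ratio of means of 0.981 and a mean percentile of 69.4 ± 5.29. The −log10 p did not follow. It was 57.9 in 1a and 59.4 in 1c, against 14.8 (2a), 11.2 (2b) and 18.5 (2c), so the replicates did not overlap. The share of all regions with such a split in −log10 p was not counted. By −log10 p the peak ranked 13 of 12484 in list 1a and 7 of 10068 in 1c, but 2224 of 8044 in 2a, 4278 of 9009 in 2b and 1919 of 11111 in list 2c. The peaks were also wider in replicate 1, at 571 and 580 bp, than in replicate 2, at 369, 371 and 488 bp.

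Peaks of similar fold put these values in place. Among the peaks of list 1a within 0.5 of its fold (1282 peaks, median −log10 p 14.8), none had a higher −log10 p, and the same was so in list 1c (1522 peaks, median 11.7). In replicate 2 the exonic peak was near the middle of such peaks: 476 of 879 had a higher −log10 p in 2a, 1051 of 1785 in 2b and 358 of 923 in list 2c. The start-site peak of POT1 did not show this split. Its −log10 p was 32.8, 21.2, 14.6, 24.7 and 22.4 in libraries 1a, 1c, 2a, 2b and 2c. No value per base and no input signal was used here, so what sets the high −log10 p at moderate fold in replicate 1 was not tested.

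**Figure D5:**
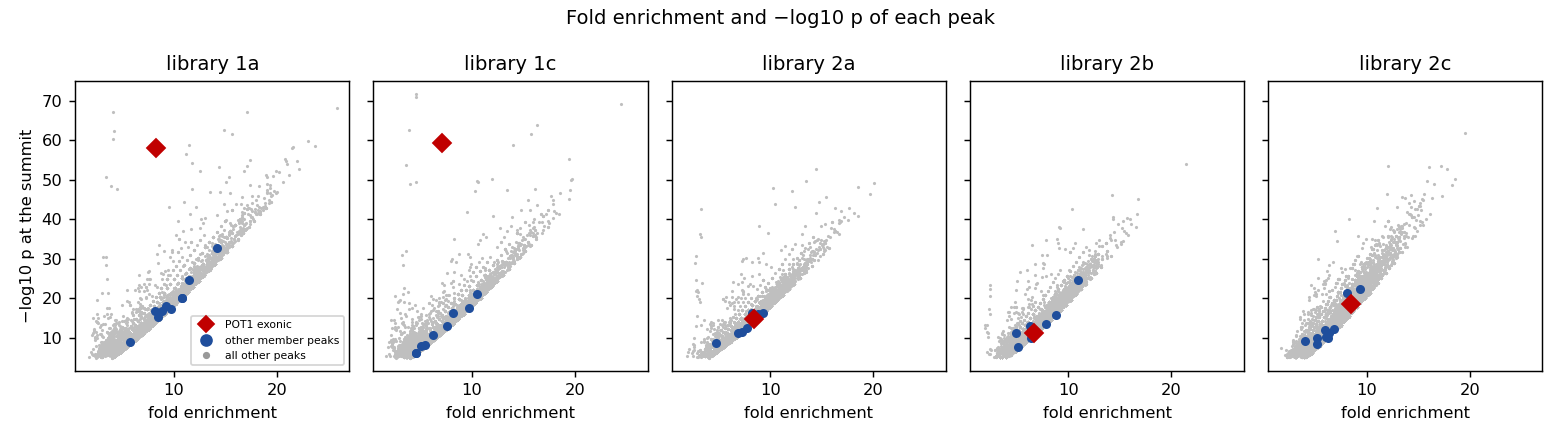
Each panel plots the peaks of 1 library by fold enrichment and −log10 p at the summit, with the exonic POT1 peak as a red diamond and the other member peaks in blue. In libraries 1a and 1c the diamond stands at a −log10 p of 57.9 and 59.4, far above other peaks of its fold, and in 2a, 2b and 2c it lies within the band of the other peaks at 11.2 to 18.5.

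Genes that work with telomerase and shelterin gave context. Of 36 such genes 23 (63.9%, 47.6 to 77.5) had a high-confidence region within 1 kb of a start site, beside the 35.5% of protein-coding genes given above. The 36 include a lncRNA gene, TERC, and they were not compared with genes that have a CpG island. By group the counts were 4 of 11 genes of telomerase assembly and RNA maturation (36.4%), 8 of 10 of end replication (80%) and 11 of 15 of end processing and telomere binding (73.3%). In the assembly group ZCCHC8, RUVBL2, PARN and RUVBL1 had a region. The ZCCHC8 peak had folds from 6.20 to 9.86, while GAR1 and NAF1, partners of DKC1 in the RNA particles, had no start-site peak in any library. TERC, the telomerase RNA itself, had no start-site peak either.

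In the end replication group, STN1 and TEN1, 2 of the 3 subunits of the CST complex, had regions in all 5 libraries with folds of 8.11 to 9.30 and 6.66 to 8.92. The third subunit, CTC1, had no region. RPA1 and RPA3, subunits of the single-strand binding protein RPA, were also present in all 5 libraries, and the primase subunit PRIM2 had no start-site peak. In the end processing group the nuclease gene DCLRE1B (Apollo, a TERF2 partner) and ZBTB48, a zinc finger protein that binds the telomere repeat, had the strongest regions, with folds of 8.36 to 11.2 and 8.20 to 12.04. RAD50 and DAXX followed with lowest percentiles of 75.6 and 54.98. ATRX and RTEL1 had no region, with a start-site peak in 0 and 2 libraries.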

How the data were processed

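One peak list per BG4 library of K562 and 1 list of high-confidence regions were used. Peaks were called with MACS2 on hg19, per the submitters' processing notes. The aligner, control, settings and version are not given in the sources used here. The deposited fold enrichment is the ratio of summit signal to local background as the authors' caller estimated it. The deposited −log10 p is the value at the summit, and the deposited score is derived from it. High-confidence regions came as positions only. Lists were made per library, and depth is unknown.

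Positions are on GRCh37, counted from 1. Start sites were those of all transcripts in GENCODE release 44 mapped to GRCh37. The 15 mitochondrial regions and the mitochondrial peaks were left out of comparisons. Overlap of 1 base counted. Percentiles of fold were taken within each nuclear list. Shares have 95% Wilson intervals, for counting error only. Motif, island, overlap and percentile code was tested on simulated data. Python 3.11.15, pysam 0.24.0 and minimap2 2.31 were used.

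Members were given by name, and the members and gene lists were chosen with earlier results of these data known. The exonic POT1 region was likewise named in advance as AT-rich. The related genes named were, per group, up to 4 with a region, ordered by number of libraries and then lowest percentile, and the first 2 in alphabetical order without one. PINX1 matched more than 1 gene entry and was not counted, which left 36 of 37. Alternatives covered the number of libraries, a −log10 p of at least 10, the window, the transcripts, equal list lengths, motif definitions and leaving out each library. The sequence of 1 motif is not reported here.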

Additional observations from a re-analysis of the deposited data

How the results depend on the processing

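The count of 8 genes with a start-site region held in the regions of all 5 libraries, with the middle of the region in the window, with windows of 500 bp and 2 kb, with protein-coding transcripts alone and without each library in turn. Leaving out peaks with a −log10 p under 10 gave 7, without TERF1. With that limit the related genes fell from 23 to 14 of 36, beside 25.5% of protein-coding genes. Over the start-site regions present in all 5 libraries, the median of the mean percentiles was 57.1. The medians taken within each of the 2 biological replicates had an SD of 5.04. Leaving out 1 library at a time, the median of 57.1 ran from 48.0 (without 1a) to 64.6 (without 1c). The motif count of 4 of 11 was 7 with loops of up to 12 bases and 10 with runs of 2 or more G. With regions extended by 100 bp it was 6, beside 50.2% of all regions, and the TERF2 and POT1 start-site regions joined. Of all alternatives, 42 for counts and summary values stayed close to the reported value and 5 moved, and 35 for single regions stayed and 13 moved. Close was a wide label for counts: the related genes fell from 23 to 16 in the regions of all 5 libraries and were called close. For percentiles the limit was the SD between the replicates. A region with a wide SD, as NHP2 (49.1), could hardly move, and 1 with a narrow SD, as TERF2IP (0.707), moved easily. The tally is therefore no measure of robustness. No paired analysis was possible because the K562 libraries form 1 group. Read depth, input signal and 2 biological replicates limit what these lists can show. A missing peak is no measure of absence. Regions shared with KARS1, PARD6A, POT1-AS1 or the lncRNAs at NHP2 and TINF2 belong to no single gene.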

Other observations

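The motifs did not sit at 1 fixed distance from the peak summits. At DKC1 the motif's middle was 3 bp from the summit in library 1c and 174 bp in 2b. For NHP2 the distances were 70 to 130 bp, and for the upstream ACD region 51 to 116 bp. The TERF2 motif, found only with loops of up to 12 bases, was 5 to 64 bp from the summits, and that of the POT1 start-site region 82 to 179 bp. These distances are values only, since the regions are themselves 238 to 408 bp wide.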
